A study of Mus musculus with 12 samples.

Results

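The genes examined were 8 transcription factors of oocyte growth, Figla, Nobox, Sohlh1, Sohlh2, Lhx8, Taf4b, Tbpl2 and Foxo3, taken by symbol out of 56691 mouse genes in a matrix of read counts. All 8 symbols matched a row, and 7 of them had reads. The RNA came from pooled C57BL/6 mouse oocytes, either wild-type (WT) or from mice with a total knockout (KO) of Alkbh5, the demethylase that removes N6-methyladenosine from RNA. The knockout was made with CRISPR-Cas9 by ablating exon 1 and was present in every cell of the animal, so the oocytes had also grown without the enzyme. Oocytes were taken from 3-week-old females primed with gonadotropin, placed in culture and collected at 3 stages of meiotic maturation: the germinal vesicle stage (GV), germinal vesicle breakdown (GVBD) and metaphase II (MII). Each of the 6 groups had 2 libraries, 12 in all, and the control groups carried no other allele. The study's culture methods held collected oocytes in milrinone, which blocks meiotic resumption, and then washed it out to start maturation. The study describes the libraries of a group as biologically independent, and the labels do not tie a library to particular animals. The study's methods collected oocytes by their time in culture, so in the later KO groups the genotype and the stage truly reached cannot be told apart. The study reports that most cultured KO oocytes stayed at the GV stage. It also reports that far fewer of them than of WT oocytes extruded a first polar body. GVBD and MII are therefore names of collection times for the KO groups.

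FIGLA, SOHLH1 and SOHLH2 are basic helix-loop-helix proteins that bind E-boxes, NOBOX and LHX8 are homeodomain proteins, and these 5 form the network that turns on oocyte genes while primordial follicles form and begin to grow. TAF4B is a gonad-enriched subunit of the general factor TFIID, and TBPL2 takes the place of the TATA-binding protein in growing oocytes. FOXO3 holds primordial oocytes dormant until the kinase AKT drives it out of the nucleus. A full-grown oocyte no longer transcribes, so between GV and MII the amount of an mRNA changes through its stability, and the length of its poly(A) tail, set at the end of the 3′ untranslated region, bears on how well it is kept and translated.

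The ends of 6 mRNAs are shown because the largest differences below are losses between GV and MII. Each line is 30 bases of the annotated transcript (GENCODE M21, GRCm38, longest protein-coding transcript of the gene) in the final exon, in the sense direction. Capitals mark the polyadenylation hexamer (AATAAA or ATTAAA) and the cytoplasmic polyadenylation element TTTTAT. The windows are the last 30 bases, except for Nobox, where 2 overlapping hexamers lay 41 and 45 bases before the end and the window begins 2 bases before the one nearer the end.
Figla, chr6:86020967-86020996, plus strand: ataATTAAAatgagatgatatgggaaagga
Lhx8, chr3:154306294-154306323, minus strand: agttcATTAAAcactttgcatccttgtgaa
Nobox, chr6:43303687-43303716, minus strand: taAATAAAacagtaactactgggtgtttgg
Foxo3, chr10:42181841-42181870, minus strand: gtaAATAAAgctttggtgacactctatctc
Tbpl2, chr2:24071721-24071750, minus strand: ccatgattaagaaatgaaaatttcttactc
Sohlh2, chr3:55209928-55209957, plus strand: tttAATAAAatgttttctcTTTTATaataa
Figla and Lhx8 carried ATTAAA and no AATAAA, an arrangement found in the last 50 bases of 13% of 21767 protein-coding transcripts at least 300 bases long. AATAAA stood in that window in 59.5% of them. The Tbpl2 model held neither hexamer in its last 50 bases, as did 27.5% of transcripts. Sohlh2 was the only one of the 6 with TTTTAT in its last 300 bases. It had 3 copies, beginning 110, 76 and 11 bases before the end, where 25.6% of transcripts had at least 1 copy and 1.34% had 3 or more. Only the sense strand was searched, no 2 of these motifs shared bases outside Nobox, and an absent match says only that the letters are not in the annotated end. The end of Taf4b is not shown here, and Sohlh1 had no reads.

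All 8 are protein-coding genes. Figla lies at chr6:86016171-86020996 on the plus strand, Nobox at chr6:43303674-43309554 on the minus strand, Sohlh1 at chr2:25842995-25847248 on the minus strand and Tbpl2 at chr2:24071721-24096595 on the minus strand. Sohlh2 lies at chr3:55182028-55209957 on the plus strand, Lhx8 at chr3:154306294-154330659 on the minus strand and Foxo3 at chr10:42181841-42276755 on the minus strand (GRCm38). Taf4b is on chromosome 18. It was the only one of the 8 to overlap another annotated gene, a processed pseudogene on the same strand with which it shared 0 exonic bases.

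The libraries held 28557742 to 40247810 counts, of which 221927 to 838409 came from ERCC spike-in RNAs added to the samples. Levels are therefore given as spike-in scaled counts, a gene's count divided by its library's ERCC total relative to the mean ERCC total of the 12 libraries. In bulk samples of this kind fewer intact oocytes and less RNA per oocyte cannot be told apart. Alkbh5 itself had 5355 to 10181 counts in the WT libraries and 54 to 143 in the KO libraries. KO MII replicate 2 stood apart, with 19837 genes detected against 21938 to 24436 in the other 11 libraries. All 8 oocyte markers were detected in every group, with a summed level of 17122 to 34567 CPM (counts per 1000000 endogenous counts). The summed level of 10 granulosa and cumulus markers was 29.1 to 76.7 CPM, with 1 to 4 of them at 0 in a group, and that of 6 theca and stroma markers was 1.69 to 55.9 CPM. Markers of blood (3.50 to 3324 CPM), heart and skeletal muscle (0.519 to 156 CPM) and liver (0 to 590 CPM) varied widely between libraries.

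Sohlh1 had 0 counts in all 12 libraries. SOHLH1 acts in primordial and primary follicles, before the stages sampled here. A count of 0 allows a level of up to 0.0745 to 0.105 CPM in a library, taken as 3 counts of its total and covering counting error only. The other 7 were compared per length, as TPM, a transcript's share per length, computed from the exon length of each gene. In WT GV oocytes Nobox stood first with 352 ± 88.3 TPM (SD, n = 2), followed by Figla with 79.2 ± 1.23. Tbpl2 with 26.7 ± 2.19 and Lhx8 with 26.4 ± 4.14 TPM overlapped. Foxo3 stood at 16.7 ± 2.96, Sohlh2 at 3.45 ± 0.243 and Taf4b at 2.25 ± 0.419 TPM, each below the one before it in both libraries. Nobox stayed first in all 6 groups. Figla was second in every GV and GVBD group, but sixth in WT MII with 4.36 ± 0.410 TPM, where its libraries overlapped those of Taf4b (3.59 ± 0.919 TPM). In KO MII it ranked behind Nobox and Tbpl2 with 35.1 ± 32.0 TPM and overlapped both Tbpl2 and Foxo3. Over the 12 libraries TPM varied 33.5-fold for Figla, 8.51-fold for Lhx8, 6.39-fold for Sohlh2, 5.42-fold for Nobox, 4.40-fold for Taf4b, 2.23-fold for Foxo3 and 2.04-fold for Tbpl2.

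**Figure D1:**
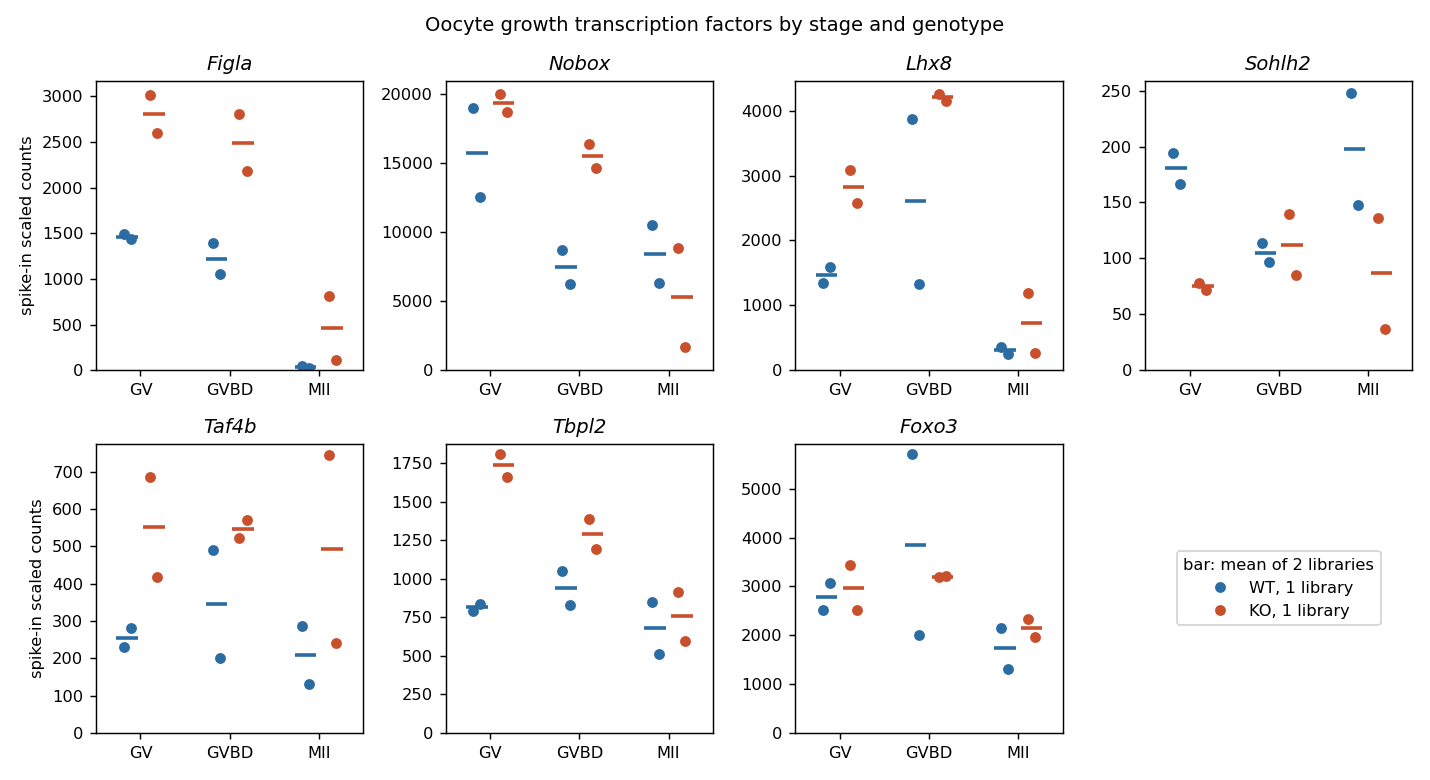
Spike-in scaled counts (vertical axes, linear and starting at 0) of the 7 detected factors at GV, GVBD and MII. Each point is 1 library, bars are the mean of 2 libraries, blue is WT and red is KO; Figla falls from 1464 at GV to 40.2 at MII in WT and stands at 463 in KO MII, where its 2 libraries lie far apart.

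The first question was which of these mRNAs are lost while WT oocytes mature. Figla, the E-box factor that dimerises with TCF3, and Lhx8 fell between GV and MII, and the other 5 did not pass the test. Figla had 1489 and 1438 spike-in scaled counts in the WT GV libraries, 1393 and 1051 at the GVBD stage, and 51.0 and 29.4 at MII. The GV and GVBD libraries were all far above the MII libraries. Figla at MII was 2.75% of its GV level, a log2 fold change of -5.19 ± 0.61 (SE, adjusted p = 1.76e-15, edgeR quasi-likelihood test, Benjamini-Hochberg over all genes tested). The raw counts behind this were 1255 and 1020 at GV and 64 and 61 at MII. Most of the loss came after GVBD, with a log2 fold change of -4.93 ± 0.82 from GVBD to MII (adjusted p = 1.07e-07) and -0.26 ± 0.38 from GV to GVBD (adjusted p = 1).

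In WT Lhx8 did not separate between GV and GVBD on the spike-in scale (log2 fold change 0.82 ± 0.52, unadjusted p = 0.157, edgeR). Without WT GVBD replicate 1 that change of Lhx8 was -0.14. Its WT libraries had 1350 and 1595 scaled counts at GV, 3869 and 1332 at the GVBD stage, and 360 and 248 at MII. The 2 GVBD libraries lay on either side of the GV libraries, and both MII libraries lay below all others. Lhx8 at MII was 20.6% of its GV level, with a log2 fold change of -2.28 ± 0.53 against GV (adjusted p = 0.000127) and -3.10 ± 0.71 against GVBD (adjusted p = 0.000186). Without either WT GV library the change from GV was -2.39 ± 0.97 (adjusted p = 0.0785) and -2.15 ± 0.97 (adjusted p = 0.129), and without WT GVBD replicate 1 that from GVBD was -2.13 ± 0.98 (adjusted p = 0.172), a fit in which 1 library stood for its group.

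These 2 of 7 tested factors, both lower, stood against 30.9% of 18816 genes called between GV and MII in WT (30.5% called lower), where a call needs an adjusted p under 0.05 and at least a 2-fold change. From GVBD to MII 2 of 7, again Figla and Lhx8, stood against 27.8% of 19211 genes (27.1% called lower). From GV to GVBD 0 of 7 were called by edgeR or by DESeq2, against 0.0511% and 1.99% of 19566 genes. Nobox alone of the 7 had an unadjusted p under 0.05 there, against 1223 of those genes. The median log2 fold change of the 7 between GV and MII was -0.69 and that of all genes -1.06. Both MII libraries were below both GV libraries for 4 of the 7 (Figla, Nobox, Lhx8 and Foxo3), against 58% of all genes. As shares of endogenous counts 2 (Figla and Lhx8) were below and 2 (Sohlh2 and Tbpl2) above. The share of all genes separated on that scale was not counted, here or below, so such counts have no background. Of the 2 called, Figla lay at percentile 3.2 and Lhx8 at percentile 24.4 of the log2 fold changes of all genes.

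The other 5 had log2 fold changes above the median of all genes (-1.06) in WT. Nobox lay close to that median, at percentile 54.2, and fell below it without WT GV replicate 2 (-1.17). Nobox had 18991 and 12551 scaled counts at GV, 8706 and 6233 at the GVBD stage, and 10532 and 6295 at MII. It was at 47.4% of its GV level at GVBD and at 53.3% at MII, with log2 fold changes of -1.08 ± 0.39 (adjusted p = 0.58) and -0.91 ± 0.46 (adjusted p = 0.125). Foxo3 had 2521 and 3066 scaled counts at GV, 5703 and 2009 at the GVBD stage, and 2154 and 1315 at MII, a log2 fold change of -0.69 ± 0.48 from GV to MII (adjusted p = 0.308). Tbpl2 had 789 and 838 at GV, 1051 and 832 at the GVBD stage, and 845 and 512 at MII, so that its GV and MII libraries overlapped (-0.26 ± 0.51, adjusted p = 0.769). Taf4b overlapped as well, with 229 and 282 at GV, 491 and 201 at the GVBD stage, and 287 and 131 at MII (-0.29 ± 0.58, adjusted p = 0.776). Sohlh2 had 195 and 166 scaled counts at GV, 114 and 96.5 at the GVBD stage, and 248 and 147 at MII. It was the one factor whose log2 fold change from GV to MII was above 0, by 0.13 ± 0.60 (adjusted p = 0.913). As a share of all endogenous counts it was 1.84 times its GV level, with both MII libraries above both GV libraries. TMM scaling, which assumes that most genes keep their level, moved the median of all genes from -1.06 to -0.14 and the calls over all genes from 74 higher and 5747 lower to 1593 higher and 3053 lower. Figla (-4.28) and Lhx8 (-1.34) were called lower on that scale too, against 24.7% of all genes called, and Foxo3 (0.23), Taf4b (0.58) and Tbpl2 (0.65) turned above 0 without being called. Sohlh2 was at 1.03 ± 0.31 (adjusted p = 0.0517) with TMM. With median-of-ratios scaling it was called higher, at 1.08 ± 0.30 (adjusted p = 0.0438), as the third factor called beside Figla and Lhx8, where 25.4% of all genes were called.

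The same collection times were then compared without ALKBH5. Figla had 3017 and 2592 scaled counts in the KO GV libraries, 2807 and 2178 at the GVBD stage, and 812 and 115 at MII. Both MII libraries were below all GV and GVBD libraries, but 1 held several times the other. Figla in KO MII was 16.5% of its GV level, a log2 fold change of -2.60 ± 0.88 (adjusted p = 0.109). Lhx8 had 3081 and 2571 at GV, 4256 and 4155 at the GVBD stage, and 1196 and 271 at MII, and was at 26% of its GV level (-1.95 ± 0.77, adjusted p = 0.156). Nobox had 20051 and 18706 at GV, 16424 and 14641 at the GVBD stage, and 8871 and 1698 at MII, which was 27.3% of GV (-1.87 ± 0.73, adjusted p = 0.153). For all 3 the lower MII value came from KO MII replicate 2, the library with the fewest genes detected.

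None of the 7 was called between KO GV and KO MII, against 3.28% of 18777 genes, nor from KO GVBD to MII, against 7.2% of 17966 genes, nor from KO GV to GVBD, against 0.22% of 19064 genes. An unadjusted p under 0.05 was found for 3 of the 7 (Figla, Nobox and Lhx8) from GV to MII, against 4626 of 18777 genes. It was found for the same 3 from GVBD to MII, against 3755 of 17966 genes. From GV to GVBD it was found for 0, against 1459 of 19064 genes. DESeq2 called Figla and Lhx8 from GV to MII (adjusted p = 0.012 and 0.0487), where it called 16.5% of all genes, and from GVBD to MII (adjusted p = 0.0287 and 0.00923), where it called 12.7%. It called none of the 7 from GV to GVBD, against 1.35%. Without KO MII replicate 1, 5 factors were called lower, against 54.2% of all genes called, and without KO MII replicate 2, 3 were (Figla, Nobox and Lhx8), against 16.9%. Both KO MII libraries were below both KO GV libraries for 5 of 7 factors, all but Sohlh2 and Taf4b, against 61.4% of all genes. As shares of endogenous counts 4 were below (Figla, Nobox, Lhx8 and Tbpl2) and Sohlh2 was above. The median of the 7 was -1.20 and that of all genes -1.17.

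Tbpl2, Foxo3, Taf4b and Sohlh2 in KO oocytes had smaller differences. Tbpl2 had 1810 and 1661 scaled counts at GV, 1390 and 1191 at the GVBD stage, and 915 and 599 at MII, each stage below the one before in both libraries, with a log2 fold change of -1.20 ± 0.64 from GV to MII (adjusted p = 0.271). Foxo3 had 3432 and 2511 at GV, 3183 and 3205 at the GVBD stage, and 2337 and 1970 at MII (-0.46 ± 0.58, adjusted p = 0.655). Taf4b had 686 and 417 at GV, 521 and 570 at the GVBD stage, and 745 and 242 at MII, without separation of the stages (-0.16 ± 0.78, adjusted p = 0.922). Sohlh2 had 78.3 and 71.4 at GV, 140 and 84.8 at the GVBD stage, and 136 and 37.2 at MII (0.21 ± 0.95, adjusted p = 0.917).

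**Figure D2:**
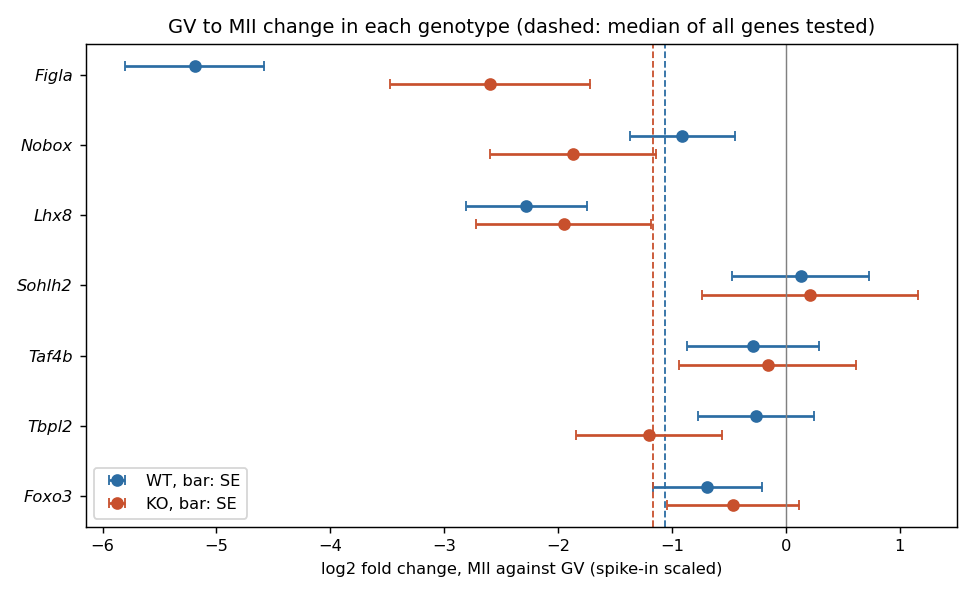
Log2 fold change from GV to MII on the spike-in scale (horizontal axis) of each factor in WT (blue) and KO (red), with the standard error; dashed lines are the medians of all genes tested, -1.06 in WT and -1.17 in KO. Figla lies farthest below the median in WT at -5.19 and at -2.60 in KO, and Sohlh2 lies above 0 in both genotypes, at 0.13 and 0.21.

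Whether the genotypes differ in this change was tested with the interaction of genotype and stage. Figla had the largest difference of the 7, its log2 change from GV to MII being 2.59 ± 1.04 less negative in KO than in WT (unadjusted p = 0.029, adjusted p = 0.766, edgeR). None of the 7 was called, against 0% of 20807 genes, 0 of which were called although 1197 had an unadjusted p under 0.05. DESeq2 called no factor either, against 0.731% of all genes, and of the 7 only Figla had an unadjusted p under 0.05. The difference for Figla was 0.59 ± 0.60 without KO MII replicate 1 and 3.41 ± 0.59 (adjusted p = 0.019) without KO MII replicate 2, a fit that called 1.24% of all genes. Tbpl2 (-0.94 ± 0.70) and Nobox (-0.97 ± 0.91) had changes that were more negative in KO, and those of Lhx8, Foxo3, Taf4b and Sohlh2 differed by 0.33 or less (adjusted p = 1 for all 6).

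The genotypes were next compared within each stage. At GV the KO libraries were above the WT libraries for 4 of 7 factors, Figla, Lhx8, Taf4b and Tbpl2, against 42.2% of all genes, and below them for 1 (Sohlh2), against 9.69%. The same 4 and 1 separated as shares of endogenous counts. Tbpl2, the oocyte form of the TATA-binding protein, was 2.13 times its WT level at GV, with a log2 fold change of 1.09 ± 0.20 (adjusted p = 0.13). Taf4b was 2.16 times its WT level (1.11 ± 0.37, adjusted p = 0.213), and Figla and Lhx8 were both 1.92 times theirs (0.94 ± 0.19, adjusted p = 0.141, and 0.94 ± 0.20, adjusted p = 0.153). Sohlh2 was at 41.5% of WT, from raw counts of 164 and 118 in WT and 43 and 56 in KO (-1.27 ± 0.43, adjusted p = 0.222). Nobox and Foxo3 overlapped between genotypes, at 1.23 and 1.06 times WT.

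At the threshold used, 0 of 7 were called at GV, against 0.0977% of 19452 genes. Unadjusted p values under 0.05 were found for 5 of them (Figla, Lhx8, Taf4b, Tbpl2 and Sohlh2), against 3475 of the 19452 genes. DESeq2 called Tbpl2 (adjusted p = 9.5e-05) and 3.64% of all genes, while with all 12 libraries in one model the adjusted p of Tbpl2 was 1. Figla and Lhx8 had DESeq2 adjusted p values of 0.000283 and 0.00104, but their changes were under the 2-fold minimum. With all 12 libraries in one model (edgeR) their unadjusted p values were 0.175 and 0.156. The median of the 7 was 0.94 and that of all genes 0.36, the latter a shift of the whole transcript pool on the spike-in scale. The 4 liver markers were at 0.494 to 0.644 CPM in the WT GV libraries, with 2 of them at 0 in both, and at 320 to 590 CPM in the KO GV libraries, and their part in these differences was not tested.

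At GVBD Figla, Nobox, Lhx8, Taf4b and Tbpl2 were above WT in both KO libraries, 5 of 7 against 30.3% of all genes, and none was below, against 17.9%. As shares of endogenous counts 4 of these were above, all but Taf4b. Nobox was 2.08 times its WT level (1.06 ± 0.50, adjusted p = 0.329) and Figla 2.04 times (1.03 ± 0.51, adjusted p = 0.355). Lhx8 was at 1.62, Taf4b at 1.58, Tbpl2 at 1.37, Sohlh2 at 1.07 and Foxo3 at 0.828 times WT (adjusted p of 0.613 or more). None was called, against 2.54% of 19462 genes. Of the 7, 1 (Nobox) had an unadjusted p under 0.05, against 2901 of the 19462 genes, and DESeq2 called none, against 4.87%. The 4 blood markers were at 1731 to 1920 CPM in the WT GVBD libraries and at 7.20 to 12.4 CPM in the KO GVBD libraries. The summed level of theca and stroma markers was also lower in both KO libraries (3.94 to 8.69 against 19.2 to 55.9 CPM). That of granulosa and cumulus markers was higher in both (40.8 to 60.5 against 29.1 to 38.5 CPM). Cyp19a1 led that sum, with raw counts of 1420 and 1085 in KO and 786 and 931 in WT. Kitl did not separate, with raw counts of 113 and 175 against 159 and 174. The part of these markers in the differences above was not tested.

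At MII Figla was the factor with the largest difference. The WT libraries had 51.0 and 29.4 scaled counts and the KO libraries 812 and 115, so both KO libraries were above both WT libraries. Figla was 11.5 times its WT level, a log2 fold change of 3.53 ± 1.03 that did not pass the threshold (adjusted p = 0.0668), at percentile 98.9 of all genes. It was called by DESeq2 (adjusted p = 0.00909), with all 12 libraries in one model (adjusted p = 0.0388) and without KO MII replicate 2 (4.34 ± 0.99, adjusted p = 0.00167), which called 1.94%, 0.995% and 2.78% of all genes. Without KO MII replicate 1 the log2 fold change was 1.52 ± 0.92 (adjusted p = 0.569). As a share of endogenous counts Figla was 8.58 times its WT level.

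**Figure D3:**
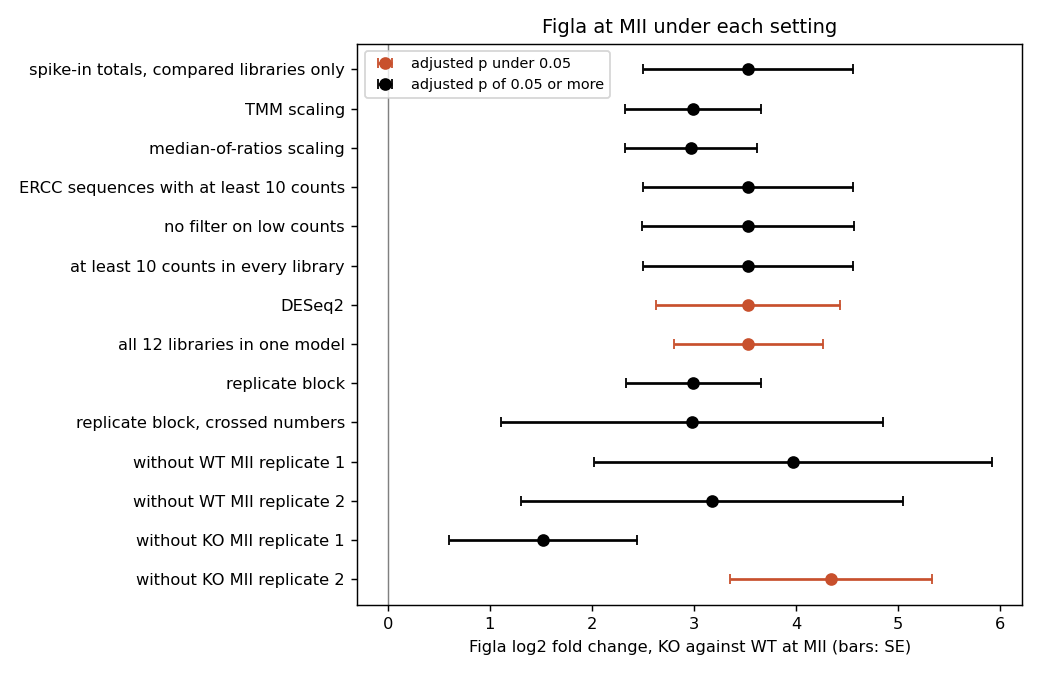
Log2 fold change of Figla between KO and WT at MII (horizontal axis, bars are the standard error) under each setting named on the vertical axis; red marks an adjusted p under 0.05. All values lie above 0, from 1.52 without KO MII replicate 1 to 4.34 without KO MII replicate 2. The bars of the edgeR fits are derived from their F statistics, and the bar of DESeq2 is the error that tool reports.

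Lhx8 at MII was 2.41 times its WT level (1.27 ± 0.89, adjusted p = 0.986) and Taf4b 2.36 times (1.24 ± 0.91, adjusted p = 1), each with 1 KO library above and 1 within the range of the WT libraries. Sohlh2 was at 43.8% of WT, with both KO libraries below both WT libraries (-1.19 ± 1.0, adjusted p = 1). Nobox was at 62.8% of WT (-0.67 ± 0.74, adjusted p = 1), its KO libraries at 8871 and 1698 against 10532 and 6295. Tbpl2 and Foxo3 overlapped between genotypes, at 1.12 and 1.24 times WT. In all, 1 of 7 was separated upwards (Figla), against 22.1% of all genes, and 1 downwards (Sohlh2), against 10.3%. As shares of endogenous counts 2 were separated upwards (Figla and Taf4b) and 2 downwards (Nobox and Sohlh2), with no share of all genes counted. None was called, against 0.803% of 17566 genes. Figla alone of the 7 had an unadjusted p under 0.05, against 1286 of those genes. The 5 heart and skeletal muscle markers were at 73.1 to 146 CPM in WT MII and at 0.519 to 1.32 CPM in KO MII. The summed level of theca and stroma markers was also lower in KO (1.69 to 12.2 against 13.7 to 16.0 CPM). That of granulosa and cumulus markers was higher (49.0 to 76.7 against 40.3 to 46.5 CPM). Cyp19a1 led that sum, with raw counts of 1267 and 2225 in KO and 1365 and 1267 in WT. Kitl was not higher in both KO libraries, with raw counts of 221 and 73 against 263 and 227. The part of these markers in the differences above was not tested.

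**Figure D4:**
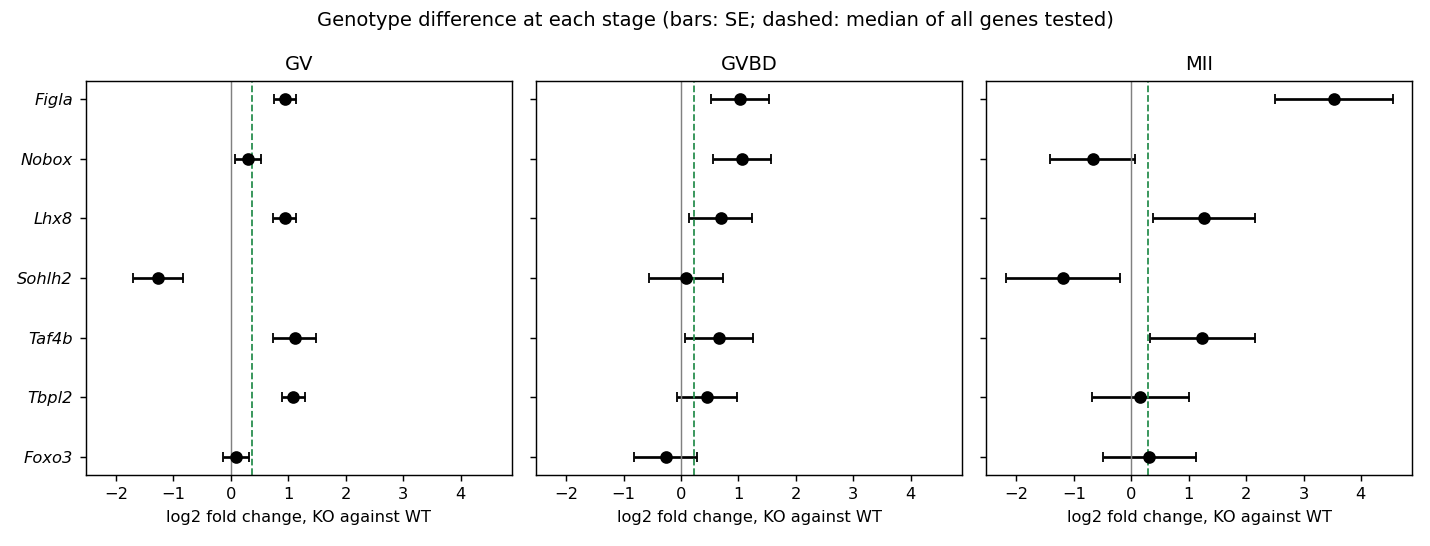
Log2 fold change between KO and WT (horizontal axes, the same scale in each panel) of each factor at GV, GVBD and MII, with the standard error; the dashed line is the median of all genes tested, at 0.36, 0.23 and 0.30. Figla lies above the median in each panel, and Sohlh2 lies below it in each.

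With the 3 stages in a single fit and stage as its covariate, Figla was higher in KO by 1.76 ± 0.51 on the log2 scale (adjusted p = 0.0991), Taf4b by 1.0 ± 0.36, Lhx8 by 0.97 ± 0.34 (adjusted p = 0.158 for both) and Tbpl2 by 0.57 ± 0.25 (adjusted p = 0.236). Sohlh2 was lower by 0.80 on that scale, its log2 fold change being -0.80 ± 0.40 (adjusted p = 0.301). Nobox (0.23 ± 0.38) and Foxo3 (0.04 ± 0.27) were near 0. None was called, against 1.26% of 22004 genes. Unadjusted p values under 0.05 were found for 4 (Figla, Lhx8, Taf4b and Tbpl2), against 4146 of the 22004 genes. DESeq2 called 2, Figla (adjusted p = 0.00379) and Taf4b (adjusted p = 0.0491), against 6.17% of all genes. Without KO MII replicate 1 the log2 difference of Figla was 1.12 ± 0.23 (adjusted p = 0.0412), where 0.751% of all genes were called. On the TMM scale Nobox (-0.10) and Foxo3 (-0.14) fell on the other side of 0.

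FIGLA activates Zp1, Zp2 and Zp3, which encode the egg coat, through E-boxes in their promoters, and the stretch 250 bases upstream of the RefSeq start of Zp3 is shown with that of Figla itself. The RefSeq start of Figla lies inside the GENCODE gene given above, whose start is farther upstream, so the stretch shown for Figla overlaps that gene model. Capitals mark every CANNTG (GRCm38.p6, sense strand; the pattern reads alike on both strands).
Figla, chr6:86016941-86017190, plus strand: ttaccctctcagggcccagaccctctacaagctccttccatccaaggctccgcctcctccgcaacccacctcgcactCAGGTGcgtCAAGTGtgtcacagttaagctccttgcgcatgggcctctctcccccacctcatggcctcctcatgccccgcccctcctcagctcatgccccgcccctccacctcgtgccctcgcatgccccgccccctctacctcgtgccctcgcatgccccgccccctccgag
Zp3, chr5:135979855-135980104, plus strand: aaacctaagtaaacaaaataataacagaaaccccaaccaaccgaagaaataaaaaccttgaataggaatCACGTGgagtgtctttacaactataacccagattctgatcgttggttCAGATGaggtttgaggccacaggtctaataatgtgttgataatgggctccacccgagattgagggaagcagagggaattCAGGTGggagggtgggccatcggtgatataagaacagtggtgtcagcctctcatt
Zp3 held 3 such E-boxes, as 3 or more did 12.2% of 32851 promoters of this length, and Figla held 2, as 2 or more did 31.8%. At least 1 was present in 66.2% of promoters. A CAGGTG on either strand, present once in each of these, was found in 17.2%. The same stretch of Tbpl2 held 4, Nobox 2, Sohlh2 1, Sohlh1 5, and Lhx8 and Foxo3 held 0. A match is a description of the letters and not a bound site.

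In the fixed list of 17 oocyte target genes, 6 were called lower and 1 higher between GV and MII in WT. Of all genes 30.5% were called lower there. The list had a median log2 fold change of -0.40 against -1.06 for all genes. Zp2 went from 67393 and 73557 scaled counts at GV to 15924 and 7804 at MII (-2.57 ± 0.45, adjusted p = 2.42e-07), and Zp3 from 38931 and 33799 to 8062 and 4469 (-2.54 ± 0.47, adjusted p = 9.3e-07). Fgf8, an oocyte-secreted growth factor, had 142 and 119 raw counts in WT GV and 0 in both WT MII libraries, a level at least 87.6-fold lower when 3 counts are taken as the floor of each library (adjusted p = 2.05e-13). Oosp1, an oocyte-secreted protein, rose from 123864 and 98024 to 269815 and 180752 scaled counts (1.02 ± 0.40, adjusted p = 0.0345). The other 3 called lower, named here after their values were seen, were Zp1 (-1.37 ± 0.47), the oogenesin Oog1 (-1.94 ± 0.47), which has near-identical copies whose reads may be split or shared, and Padi6 (-1.15 ± 0.44). Pou5f1 (0.53 ± 0.55) and Mos (0.52 ± 0.46) were the next highest and did not pass the test. With Fgf8 at its bound the list median was again -0.40, and on the TMM scale it was 0.50.

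In KO the same list had 1 gene called lower between GV and MII (Oog1, -2.46 ± 0.57, adjusted p = 0.0478) and none higher. Of all genes 3.28% were called there. The list median was -0.11 against -1.17 for all genes. Zp2 had 66539 and 58065 scaled counts in KO GV and 59404 and 29092 in KO MII (-0.49 ± 0.50, adjusted p = 0.569), and Zp3 had 35454 and 36601 in KO GV and 32881 and 14088 in KO MII (-0.62 ± 0.54, adjusted p = 0.506). Between genotypes, 0 of 17 were called at GV, 0 at GVBD and 1 at MII, against 0.0977%, 2.54% and 0.803% of all genes. The gene called was Fgf8, with 0 raw counts in both WT MII libraries and 49 and 35 in KO MII. It was at least 19.3-fold higher in KO (adjusted p = 0.0157). Zp2 and Zp3 at MII were above WT in both KO libraries by 1.90 ± 0.66 (adjusted p = 0.198) and 1.91 ± 0.71 (adjusted p = 0.263) on the log2 scale. Between genotypes the list median was 0.23 at GV, then 0.58 at GVBD and 0.25 at MII, against 0.36, 0.23 and 0.30 for all genes.

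Among 13 partners and paralogs of the factors, such as the FIGLA dimer partner Tcf3 and the TATA-binding protein cofactors Gtf2a1 and Gtf2a2, 11 were tested between GV and MII in WT and 0 were called. The lowest were Foxo4 (-2.35 ± 1.30), Tcf12 (-1.10 ± 0.65) and Tcf3 (-0.98 ± 0.68), and the highest were Gtf2a1 (0.53 ± 0.49), Ldb1, the cofactor of LIM homeodomain proteins (0.48 ± 0.56), and Gtf2a2 (0.46 ± 0.48). Foxo4 was scarce, with 0 and 43 raw counts in WT GV. The list median was 0.01, and 0.88 on the TMM scale. For all genes the median was -1.06 on the spike-in scale, and 30.9% were called. None of this list was called between genotypes at any stage (11 tested at GV, 12 at GVBD and 12 at MII). Of all genes 0.0977%, 2.54% and 0.803% were called there. The medians of this list were 0.39, 0.28 and 0.29, against 0.36, 0.23 and 0.30 for all genes.

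FOXO3 is held in the cytoplasm by signalling through PI3 kinase and AKT. A list of 16 genes of that route and of the linked mTOR signalling was tested in full. In WT 3 were called lower between GV and MII and none higher, with a median of -0.73 (0.26 on the TMM scale). Of all genes 30.5% were called lower there, with a median of -1.06. Rps6, a ribosomal protein phosphorylated downstream of mTOR, had the lowest log2 fold change (-4.10 ± 0.53, adjusted p = 5.98e-13), although its processed pseudogenes make its counts uncertain. Stk11, the kinase LKB1, followed at -2.25 ± 0.70 (adjusted p = 0.00634), and Tsc2, an inhibitor of mTOR, at -2.0 ± 0.55 (adjusted p = 0.00159). The highest were Rheb (0.43 ± 0.48), Pik3r1 (0.26 ± 0.49) and Tsc1 (-0.14 ± 0.50), which did not pass the test. In KO only Rps6 was called (-3.48 ± 0.70, adjusted p = 0.0403), against 3.28% of all genes. Between genotypes none of the 16 was called at GV, GVBD or MII, against 0.0977%, 2.54% and 0.803% of all genes. The medians of the list were 0.33, 0.42 and 0.51 against 0.36, 0.23 and 0.30 for all genes.

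The genes whose levels ran most like each factor over the 12 libraries were ranked by Pearson's r of log2 TMM-scaled CPM among 10836 named genes averaging 50 counts or more. Libraries of one group share stage and genotype, so these values describe likeness only. Figla was nearest to Fam32a (0.99), Tprg (0.989) and Dglucy (0.985), and Lhx8 to Naa11 (0.991), Fiz1 (0.985) and Lypd3 (0.977). Nobox was nearest to Psmd4 (0.978), Sohlh2 to Ube2uos (0.948), Taf4b to Dnajc13 (0.943), Foxo3 to Tlcd2 (0.902) and Tbpl2 to Fam240b (0.861). Among the factors themselves Figla and Lhx8 ran closest (0.88), while Sohlh2 ran opposite to both Figla (-0.76) and Lhx8 (-0.71), and Nobox opposite to Foxo3 (-0.72).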

How the data were processed

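RNA from pooled oocytes was sequenced after SMART-type amplification with ERCC spike-ins, per the study's methods. The labels instead describe a poly(A) preparation from Trizol-extracted RNA, and which of these applied is not settled. The authors deposited raw read counts per gene on mm10, with cutadapt 1.9, HISAT2 2.0.4, StringTie 1.3.4d, DESeq2 and edgeR named in their processing notes. Amplified reads without molecular identifiers are not independent molecules. Priming on the poly(A) tail can let tail length enter the counts, which was not tested. The depth was 28557742 to 40247810 counts per library, and with 2 libraries per group the spread rests on few values. Identifiers were matched to GENCODE M21 symbols; H1f8 matched as H1foo. Promoter windows are RefSeq, GRCm38.p6, of which 7 of the 8 factors had an entry.

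Each comparison was fitted with edgeR 4.0.16 (glmQLFit, glmQLFTest, filterByExpr, two-sided) on the libraries compared, with library sizes proportional to the summed counts of 92 ERCC sequences. Calls needed a Benjamini-Hochberg adjusted p under 0.05 over all genes tested and an absolute log2 fold change of at least 1. The SE of an edgeR log2 fold change was its absolute value divided by the square root of the F statistic. For DESeq2 the SE is the one that tool reports. Other scalings (TMM, median of ratios, only the 46 ERCC sequences that reached 10 counts throughout), filters, DESeq2 1.42.0, one model of all libraries, the replicate number as a block and omission of each library were run as alternatives. The test was also run on simulated counts. These gave all genes a common dispersion and held no outlying library and no spike-in error, so they do not speak to those limits. TPM used merged exon lengths. The members and gene lists were chosen with earlier results of these data known. Genes of the lists were named if called between genotypes or among the 3 lowest or 3 highest log2 fold changes of their list in WT from GV to MII; the nearest 3 genes were sought by r with a pseudocount of 0.5.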

Additional observations from a re-analysis of the deposited data

Results flagged for a closer look

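Sohlh2 differed in opposite directions between GV and GVBD in the 2 genotypes. Both WT GVBD libraries (114 and 96.5 spike-in scaled counts) were below both WT GV libraries (195 and 166), a log2 fold change of -0.78, and both KO GVBD libraries (140 and 84.8) were above both KO GV libraries (78.3 and 71.4), a log2 fold change of 0.58. The KO change exceeded the WT change by 1.36 on the log2 scale. The difference was not tested, and neither change passed the test by itself (adjusted p = 1 in WT and 0.836 in KO, edgeR). Raw counts were 43 to 164 in these 8 libraries.

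Zp2, a FIGLA target, was below WT in both KO libraries at GV (-0.18 ± 0.16 on the log2 scale) and above WT in both at MII (1.90 ± 0.66). The difference between the stages was 2.08 ± 0.67 and did not pass the test of the interaction of genotype and stage (adjusted p = 0.572, edgeR).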

How the results depend on the processing

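The number of the 7 factors called differed from the reported one as follows. Between genotypes at GV it was 1 (Tbpl2) with no filter on low counts (2.27% of all genes called) and with DESeq2 (3.64%), in place of 0 (0.0977%). At MII it was 1 (Figla) with DESeq2 and with all 12 libraries in one model, in place of 0, and 0 to 1 with each library left out. Over all stages it was 1 with median-of-ratios scaling (Sohlh2), 1 with no filter and 1 with at least 10 counts in every library (Figla), 2 with DESeq2, and 0 to 2 with each library left out. From GV to MII it was 1 to 3 in WT with each library left out, in place of 2, and 3 with median-of-ratios scaling. In KO it was 2 with no filter, 3 with at least 10 counts in every library, 2 with DESeq2 and 1 with all 12 libraries in one model, in place of 0, and 0 to 5 with each library left out. From GVBD to MII it was 4 in WT with TMM and with median-of-ratios scaling, where Nobox and Sohlh2 were called higher, and 1 to 2 with each library left out, in place of 2. In KO it was 2 with no filter, with at least 10 counts in every library, with DESeq2 and with all 12 libraries in one model, in place of 0, and 0 to 3 with each library left out. For the interaction of genotype with maturation it was 0 to 1 with each library left out. The share of all genes called moved too. Over all stages it was 2.77% (median of ratios), 3.57% (no filter), 6.41% (10 counts) and 6.17% (DESeq2), against 1.26%. In KO, no filter, 10 counts, DESeq2 and one model called 9.32%, 17.5%, 16.5% and 13.3% from GV to MII, against 3.28%. From GVBD to MII they called 5.5%, 11.2%, 12.7% and 10.8%, against 7.2%. In WT, TMM and median of ratios called 25.6% and 26.1% there, against 27.8%. The causes were not tested. The other 127 of 157 alternative counts were within 1.5 times the reported ones.

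Deviations of same-numbered libraries had correlations from -0.22 to 0.22 over 13273 genes, and the main fits did not pair libraries by number. A batch shared by number was not tested. With the replicate number as a block, 2 factors were called in KO from GV to MII, in place of 0, against 13.1% of all genes. From GVBD to MII in KO 3 were called, in place of 0, against 13.6% of all genes. The main fits called 3.28% and 7.2% of all genes there. Calls over all genes between genotypes moved from 19 to 0 at GV, from 494 to 214 at GVBD and from 141 to 4 at MII. Over all stages they rose from 278 to 673. In KO they rose from 616 to 2462 (GV to MII) and from 1293 to 2443 (GVBD to MII), and fell from 42 to 16 (GV to GVBD). In WT they rose from 10 to 182 (GV to GVBD) and from 5339 to 6099 (GVBD to MII), and fell from 5821 to 4973 (GV to MII). Crossing the numbers, an alternative chosen after seeing the data, gave 218 genes at GV, 0 at MII and 204 in KO from GVBD to MII, with 0 of the factors.

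Over 11 comparisons, 83 of 1099 alternative log2 fold changes of the 7 factors had another sign than the reported one, 0 of them called in either fit. Of the values reported, those from GV to MII in WT were Nobox at 0.03 (median of ratios), Taf4b at 0.58 (TMM), 0.63 (median of ratios) and -0.96 to 0.17 with each library left out, Tbpl2 at 0.65 (TMM), 0.70 (median of ratios) and -0.67 to 0.06 with each left out, Foxo3 at 0.23 (TMM) and 0.28 (median of ratios), and Sohlh2 at -0.29 to 0.46 with each left out. In KO they were Taf4b at 0.82 (TMM), 0.84 (median of ratios) and -1.19 to 0.43 with each left out, Foxo3 at 0.75 (TMM) and 0.79 (median of ratios), and Sohlh2 at -0.07 (replicate block) and -1.0 to 0.86 with each left out. Between genotypes at MII they were Lhx8 at -0.17 to 1.98 and Nobox at -2.31 to 0.08 with each left out, the extremes in both coming from the 2 KO MII libraries. Over all stages they were Nobox at -0.10 (TMM) and -0.13 (median of ratios), and Foxo3 at -0.14 (TMM), -0.16 (median of ratios) and -0.07 to 0.31 with each left out. Figla kept its direction in every alternative run for its comparisons with MII and between genotypes.

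TMM scaling changed the split of calls over all genes between genotypes from 11 higher and 8 lower to 9 and 11 at GV, from 157 and 337 to 2 and 27 at GVBD, then from 88 and 53 to 23 and 20 at MII and from 198 and 80 to 253 and 347 over all stages. From GV to MII in KO it went from 1 and 615 to 224 and 727, and from GVBD to MII in WT from 131 and 5208 to 1902 and 3014. Left-out libraries moved the calls over all genes between 0 and 514 for GV, between 5 and 813 for GVBD and between 11 and 542 for MII. Taf4b and Sohlh2 rest on 43 to 744 raw counts per library.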
